A study of Mus musculus with 5 samples.

Results

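The 10 genes described here are those that encode the metallothioneins Mt1 and Mt2, their zinc-sensing regulator Mtf1, the zinc exporters Slc30a1 and Slc30a5 and the zinc importers Slc39a1, Slc39a6, Slc39a7, Slc39a10 and Slc39a14. They were taken by symbol from the 23361 genes of a deposited expression table, and all 10 averaged 1 FPKM or more, where FPKM counts fragments per kilobase of gene and per 1000000 fragments. The choice was made with values of this table in view, so every value below is a description of these libraries. The series has 5 libraries of polyadenylated RNA from proliferating C2C12 cells, an immortalised mouse myoblast line, with 1 library per condition and therefore no test, no p-value and no spread between replicates. In 3 libraries the cells had received vehicle (Vehicle Control), shikonin or TEPP-46 for 8 h, and in the other two a hairpin RNA against the pyruvate kinase isoform PKM2 (shPKM2) or a control hairpin (shControl) for 72 h. All cells grew in high-glucose medium with serum. Shikonin is a plant naphthoquinone used against PKM2, TEPP-46 activates PKM2, and the labels give neither their doses nor the hairpin sequences.

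Zinc inside cells is held at a very low free concentration by proteins that bind it and by carriers that move it. Metallothioneins are small cysteine-rich proteins that bind zinc, copper and cadmium. SLC30 proteins move zinc out of the cytosol, either out of the cell or into organelles, and SLC39 proteins move it in. MTF1 is a zinc-finger factor that, when zinc is plentiful, binds metal response elements in DNA and activates Mt1, Mt2 and Slc30a1, and in mouse cells it is also known to hold down Slc39a10.

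Estimated depth was 22400000 to 30900000 reads per library. Pkm, the gene targeted by the hairpin, stood at 1041 FPKM in shPKM2 and at 2061 FPKM in shControl. These were its lowest and highest levels in the 5 libraries. The libraries taken after 8 h lay between them, from 1198 FPKM (TEPP-46) to 1501 FPKM (shikonin). Vehicle, at 1321 FPKM, was nearer to shPKM2 than to shControl. Each value covers the whole gene, so RNA for PKM2 was not told apart from other Pkm RNA. All 6 myoblast markers examined (Myod1, Myf5, Des, Cdh15, Vcam1 and Pax7) had a mean of at least 1 FPKM, and their summed level ran from 261 FPKM, with shikonin, to 514 FPKM. Of the 4 markers of differentiated muscle (Myog, Ckm, Myh3 and Acta1), 3 also had a mean of at least 1 FPKM. The 4 summed to 13.1 to 38.8 FPKM, again lowest with shikonin. None of the 7 markers of immune, endothelial, epithelial and fat cells with a row reached that mean, and their summed level was 0.244 to 0.558 FPKM. In RNA from whole cultures, a change in the share of cells with a gene and a change in its RNA per cell cannot be told apart.

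The coding sequences of Mt2 and Mt1 are shown because these genes had the highest levels and the highest differences of the 10, and because their likeness bears on how reads were split between them. They come from GENCODE M21 transcripts on GRCm38, from position 94172848 to 94173427 for Mt2 and from 94179311 to 94180193 for Mt1 on the plus strand of chromosome 8, with introns removed, and capitals mark the codons TGC and TGT, which encode cysteine.
Mt2 coding sequence: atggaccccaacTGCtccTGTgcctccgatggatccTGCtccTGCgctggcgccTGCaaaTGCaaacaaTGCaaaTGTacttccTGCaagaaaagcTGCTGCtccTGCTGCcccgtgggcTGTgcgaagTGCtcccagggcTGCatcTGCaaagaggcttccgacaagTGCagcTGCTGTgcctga
Mt1 coding sequence: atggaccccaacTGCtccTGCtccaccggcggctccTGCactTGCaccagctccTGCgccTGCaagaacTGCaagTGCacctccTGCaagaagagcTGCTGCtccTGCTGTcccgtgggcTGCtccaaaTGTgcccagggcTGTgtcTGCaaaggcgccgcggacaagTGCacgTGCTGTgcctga

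Each coding sequence had 61 codons before the stop codon, and 20 of them were TGC or TGT. All 20 stood at the same codon positions in both genes. The sequences were identical at 148 of 186 bases (79.6%), and the longest run of identical bases was 20. Longer stretches therefore tell the genes apart, although how the authors assigned reads is not given in the sources used here. Mt1 lies 5513 bases beyond the end of Mt2, on the same strand.

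Promoter windows, from 250 bases before to 50 bases after the gene start in RefSeq (GRCm38.p6), were available for 8 of the 10 genes. Slc39a6 and Slc39a14 had none in the table. The core of the metal response element was searched as TGCACNC or TGCGCNC on both strands, and these windows are shown for the genes that differed by at least 2-fold in a comparison given below. Capitals mark the matches, and a match on the opposite strand appears as its reverse complement.
Mt2 promoter, chr8:94172368-94172667, plus strand: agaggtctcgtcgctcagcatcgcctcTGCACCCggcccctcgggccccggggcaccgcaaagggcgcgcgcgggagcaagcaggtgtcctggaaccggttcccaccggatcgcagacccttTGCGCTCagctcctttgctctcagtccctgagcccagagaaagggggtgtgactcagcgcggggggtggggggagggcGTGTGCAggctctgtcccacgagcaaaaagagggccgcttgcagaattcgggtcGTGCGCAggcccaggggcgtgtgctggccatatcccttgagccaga
Mt1 promoter, chr8:94178839-94179138, plus strand: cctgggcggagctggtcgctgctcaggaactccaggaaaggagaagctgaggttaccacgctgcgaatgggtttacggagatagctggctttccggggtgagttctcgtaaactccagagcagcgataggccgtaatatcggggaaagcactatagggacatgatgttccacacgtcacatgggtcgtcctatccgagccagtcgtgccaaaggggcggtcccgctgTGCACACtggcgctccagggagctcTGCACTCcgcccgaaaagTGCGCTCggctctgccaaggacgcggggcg
Slc30a1 promoter, chr1:191906531-191906830, plus strand: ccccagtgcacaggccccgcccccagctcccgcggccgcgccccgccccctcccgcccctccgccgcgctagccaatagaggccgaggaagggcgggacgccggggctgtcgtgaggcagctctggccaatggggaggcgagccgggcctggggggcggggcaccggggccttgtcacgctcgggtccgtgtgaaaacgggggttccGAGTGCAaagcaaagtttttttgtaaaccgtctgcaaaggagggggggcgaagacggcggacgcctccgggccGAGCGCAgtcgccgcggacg
Slc39a10 promoter, chr1:46853569-46853868, minus strand: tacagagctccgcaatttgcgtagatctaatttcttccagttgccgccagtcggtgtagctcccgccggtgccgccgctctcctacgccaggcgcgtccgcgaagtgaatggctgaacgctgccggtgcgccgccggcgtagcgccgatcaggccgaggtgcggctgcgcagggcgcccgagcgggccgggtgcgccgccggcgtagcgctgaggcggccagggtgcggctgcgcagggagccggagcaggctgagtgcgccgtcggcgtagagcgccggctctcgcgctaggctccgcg

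The Mt2 window held 4 matches, at positions -223, -128, -50 and 5 counted from the RefSeq start. In the Mt1 window there were 3, at -23, 3 and 21, and in the Slc30a1 window there were 2, at -43 and 31. Of all 32851 windows of the same length, 25.7% held at least 1 match, 7.11% at least 2 and 1.97% at least 3. Slc30a5 had a single match, and the windows of Slc39a1, Slc39a7, Mtf1 and Slc39a10 had none. For Slc39a10 RefSeq lists a second start, whose window had no match either. A core of the antioxidant response element, searched as TGACNNNGC on both strands, was found once each in the windows of Mt2, Slc30a1, Slc39a1 and Slc30a5, against 12.4% of all windows. It did not overlap a match to the metal response element in these windows. Annotated starts differ for the metallothioneins and for Slc39a10. The GENCODE transcripts of Slc39a10 start at 46854046, 46892852, 46888070 and 46835899, none of them inside either window searched, so its lack of a match covers these windows alone. For the metallothioneins, the letters TATAAA lie 135 bases (Mt2) and 121 bases (Mt1) beyond the RefSeq start. They fall in the first exon of the GENCODE transcript with the earliest start of each gene. Between the window and those letters there were 3 further matches to the metal response element for Mt2 and 2 for Mt1. The other GENCODE transcripts start beyond the first of those letters, at 94172860 (Mt2) and at 94179211 and 94179241 (Mt1). Counted from these starts, the positions given above would differ. A match describes letters and does not show that MTF1 binds there.

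**Figure D1:**
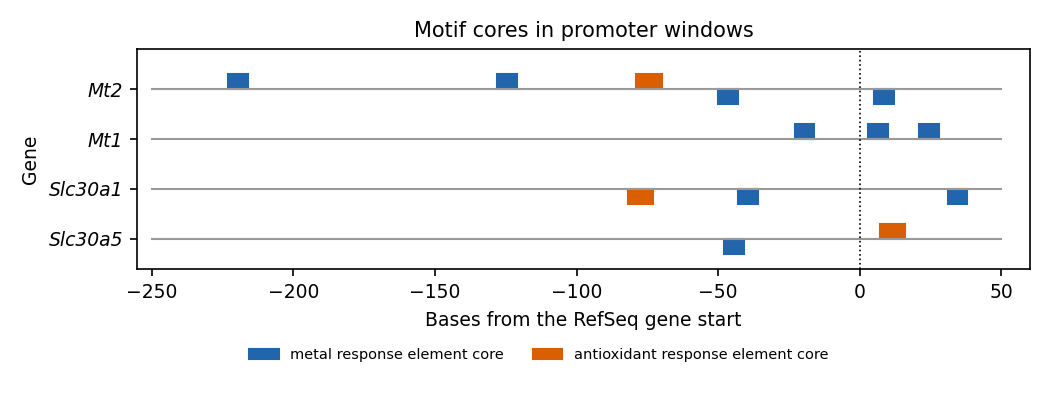
Positions of the motif cores in promoter windows of the 4 genes with a metal response element match, in bases from the RefSeq gene start; blocks above a line are on the strand of the gene and blocks below it on the opposite strand. Mt2 has 4 metal response element matches, Mt1 has 3, Slc30a1 has 2 and Slc30a5 has 1.

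The metallothionein genes had the highest levels of the 10 in all 5 libraries. The level of Mt2 was 615 FPKM with vehicle, 2297 FPKM with shikonin, 9511 FPKM with TEPP-46, 1310 FPKM in shControl and 1343 FPKM in shPKM2. The TEPP-46 library was thus far above the others, shikonin came next, the hairpin libraries lay close together and vehicle was lowest. Mt1 had the same order, with 543 FPKM with vehicle, 1909 FPKM with shikonin, 5452 FPKM with TEPP-46, 1171 FPKM in shControl and 1185 FPKM in shPKM2. Among all 23361 genes, Mt2 ranked 1 and Mt1 ranked 3 by FPKM in the TEPP-46 library, against ranks 130 and 146 with vehicle. Together they made up 2.62% of the summed FPKM with TEPP-46, 0.712% with shikonin and 0.206% with vehicle. The pair held 0.419% in shControl and 0.446% in shPKM2. Both transcripts are short, 511 nt for Mt2 and 549 nt for Mt1, so their FPKM depends more than that of long genes on the effective length used, which the sources do not give.

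The balance between the metallothioneins also differed by library. The Mt2 level divided by the Mt1 level was 1.13 with vehicle, 1.20 with shikonin, 1.74 with TEPP-46, 1.12 in shControl and 1.13 in shPKM2. Its standard error from counting was at most 0.0165, and it covers neither cultures nor library preparation. TEPP-46 therefore had relatively more Mt2 than any other library. The remaining members of the family, Mt3 and Mt4, were both below 1 FPKM in every library.

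Slc30a1, the exporter at the cell surface, followed the metallothioneins in the libraries with compounds but not in those with hairpins. Its level was 5.01 FPKM with vehicle, 11.7 FPKM with shikonin, 24.8 FPKM with TEPP-46, 4.38 FPKM in shControl and 4.08 FPKM in shPKM2. Both compound libraries lay above the other three, and the hairpin libraries were slightly below vehicle. Slc39a10, an importer at the cell surface, had nearly the reverse order, with 12.5 FPKM with vehicle, 7.67 FPKM with shikonin, 2.53 FPKM with TEPP-46, 9.76 FPKM in shControl and 8.14 FPKM in shPKM2. The level of Slc30a1 divided by that of Slc39a10 was accordingly 0.401 with vehicle, 1.53 with shikonin, 9.81 with TEPP-46, 0.449 in shControl and 0.501 in shPKM2. It was above 1 in both compound libraries and below 1 in the other three.

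Mtf1 itself was a low gene, at 5.09 FPKM with vehicle, 8.70 FPKM with shikonin, 5.81 FPKM with TEPP-46, 4.62 FPKM in shControl and 4.79 FPKM in shPKM2. Its highest level was with shikonin, not with TEPP-46, so its order did not match that of Mt1, Mt2 or Slc30a1.

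The other carriers spanned smaller ranges. Slc39a7, which releases zinc from the endoplasmic reticulum, was the highest of them at 96.6 FPKM with vehicle, 142 FPKM with shikonin, 91.8 FPKM with TEPP-46, 101.9 FPKM in shControl and 101.8 FPKM in shPKM2. Slc39a6, a close relative and partner of Slc39a10, was at 61.3 FPKM with vehicle, 86.0 FPKM with shikonin, 58.0 FPKM with TEPP-46, 51.7 FPKM in shControl and 51.6 FPKM in shPKM2. Shikonin was the high library for both of these, while the other libraries lay close to each other. Slc39a1, a widely expressed surface importer, was at 48.8 FPKM with vehicle, 43.0 FPKM with shikonin, 43.9 FPKM with TEPP-46, 62.4 FPKM in shControl and 58.4 FPKM in shPKM2, so the hairpin libraries were highest. Slc39a14, which carries iron and manganese as well as zinc, was at 27.3 FPKM with vehicle, 22.8 FPKM with shikonin, 27.4 FPKM with TEPP-46, 19.5 FPKM in shControl and 22.2 FPKM in shPKM2. Its highest level was 1.41 times its lowest. Slc30a5, which moves zinc into the early secretory pathway, ranged least of all 10, at 27.9 FPKM with vehicle, 31.1 FPKM with shikonin, 27.4 FPKM with TEPP-46, 25.3 FPKM in shControl and 24.8 FPKM in shPKM2, a highest-to-lowest ratio of 1.25. That ratio was 15.5 for Mt2, 10.0 for Mt1, 6.08 for Slc30a1 and 4.94 for Slc39a10, and no other member passed 1.88.

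**Figure D2:**
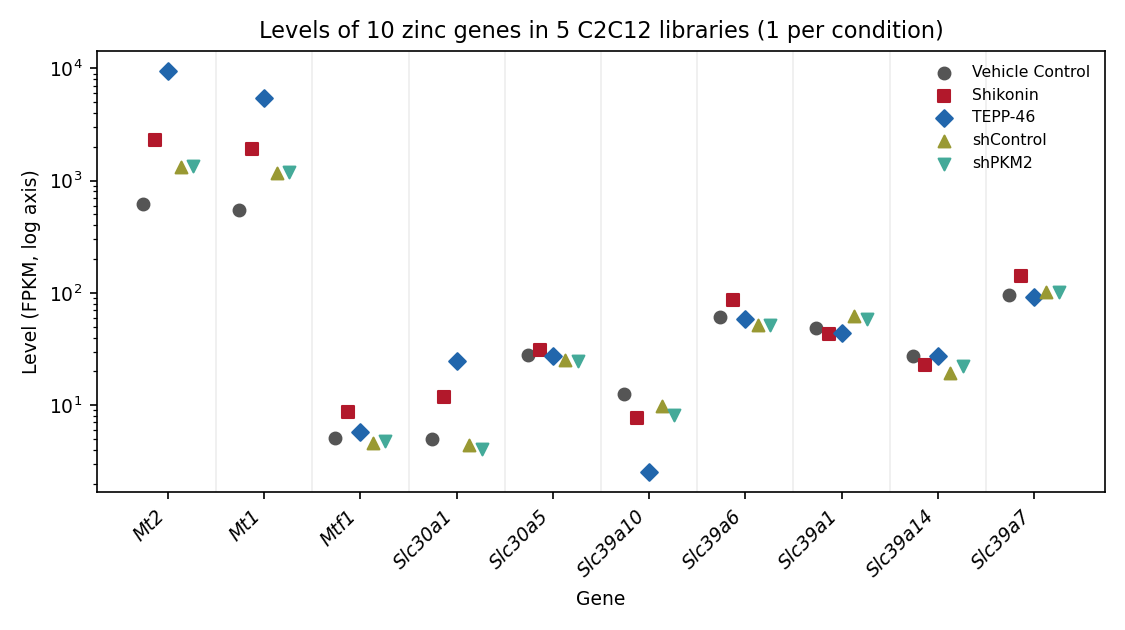
Level of each of the 10 genes in FPKM (log axis) in the 5 libraries, 1 point per library. Mt2, Mt1 and Slc30a1 are highest with TEPP-46, Slc39a10 is lowest with TEPP-46 at 2.53 FPKM, and the other genes lie close together across libraries.

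The comparison of TEPP-46 with vehicle asked how the cells responded to a compound that acts on PKM2. Differences are log2(FPKM + 1) of one library minus the other, which understates those of low genes, and errors are standard errors from counting alone (counting SE), computed without the added 1. Of the 10 genes, 3 were at least 2-fold higher and 1 was at least 2-fold lower. Over the 11128 genes that averaged 1 FPKM or more these shares were 1.23% and 0.359%, and since the genes were chosen on this contrast nothing is read from that comparison. Mt2 (15.5 times the vehicle level), Mt1 (10.0 times) and Slc30a1 (4.95 times) ranked 3, 6 and 22 from the highest difference. Slc39a10, at 0.202 times the vehicle level, ranked 13 from the lowest. The counting SE was 0.0152 for Mt2, 0.0160 for Mt1, 0.0568 for Slc30a1 and 0.0846 for Slc39a10, each far below the size of the difference. The other 6 genes differed by little: Mtf1 by 0.16 (counting SE 0.0606), Slc39a1 by -0.15, Slc39a6 by -0.08, Slc39a7 by -0.07 and Slc30a5 by -0.02. Slc39a14 differed by 0.01, or by -0.02 when the values were rescaled to equal sums (TPM). The median of the 10 was -0.01, against 0.00 for all 11128 genes.

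With shikonin against the same vehicle library, Mt2 was 3.74 times, Mt1 3.52 times and Slc30a1 2.34 times the vehicle level. These 3 of the 10 genes were at least 2-fold higher, against 4.01% of all 11128 genes, and 0 were at least 2-fold lower, against 3.50%. Their ranks from the highest difference were 74, 83 and 369, further from the top than with TEPP-46. With a pseudocount of 5 Slc30a1 was at 0.74, below 2-fold. Muscle genes differed in the same library: Myod1, the myoblast regulator, was at 26.1 FPKM against 63.2 FPKM with vehicle, Des at 171 FPKM against 290.3 FPKM, Myf5 at 3.69 FPKM against 10.7 FPKM, and Myog, which drives differentiation, at 0.278 FPKM against 5.30 FPKM. Their part in the shikonin values of the zinc genes was not tested. Mtf1 differed by 0.67 (counting SE 0.0560), Slc39a7 by 0.55 (counting SE 0.0241) and Slc39a6 by 0.48 (counting SE 0.0237). Slc39a10 stood at -0.64 (counting SE 0.0564), Slc39a14 at -0.25 and Slc39a1 at -0.18, while Slc30a5 was at 0.15. The median of the 10 was 0.52, against -0.03 for all genes. As the genes were chosen with values of these libraries in view, nothing is read from these shares and medians. Shikonin and TEPP-46 were compared with 1 shared vehicle library, so an error in that library enters both sets of values. Against shControl instead of vehicle, the shikonin differences were 0.81 for Mt2 and 0.70 for Mt1, below 2-fold, and 1.24 for Slc30a1. For TEPP-46 they were 2.86, 2.22 and 2.26 with that control. Slc39a10 was then at -0.31 with shikonin and at -1.61 with TEPP-46.

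**Figure D3:**
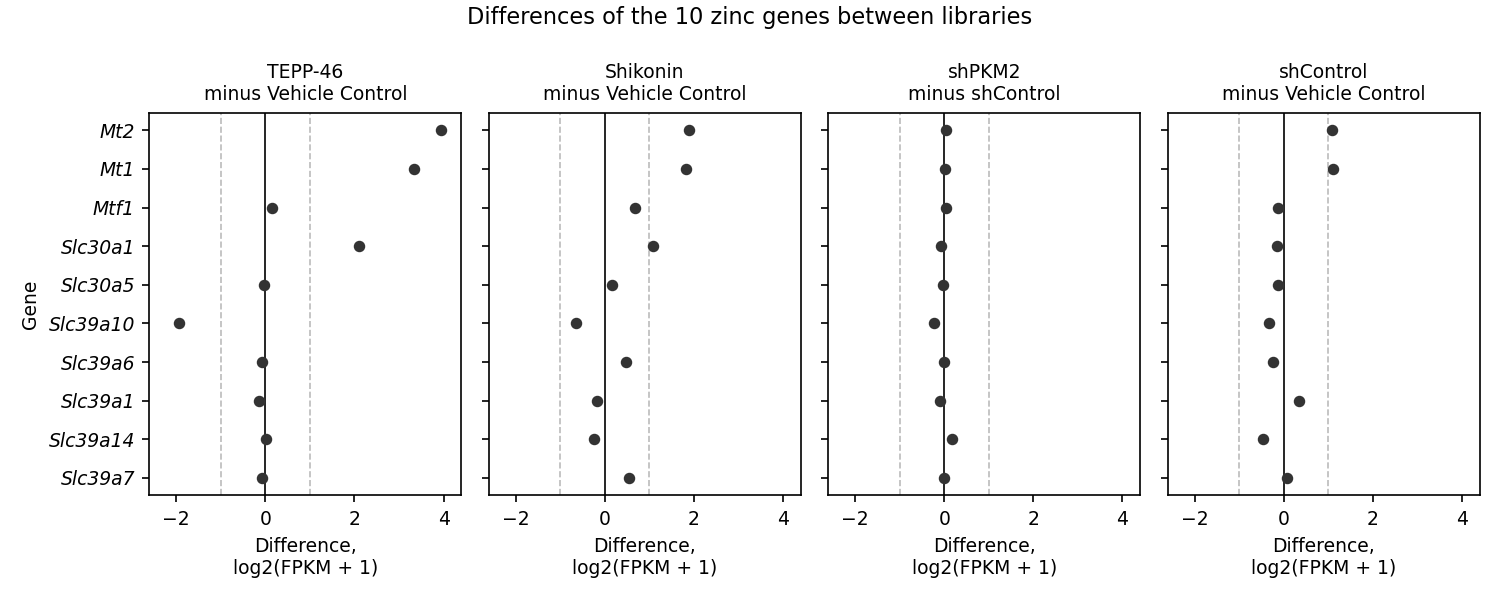
Difference of each of the 10 genes in 4 comparisons, as log2(FPKM + 1) of the library named in the upper line of a panel minus that in the lower line; bars are standard errors from counting alone, often smaller than the points, and dashed lines mark 2-fold. The shPKM2 panel stays between -0.24 and 0.18, while Mt2 reaches 3.95 with TEPP-46.

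Set side by side after the same 8 h, shikonin had 0.242 times the Mt2 level of TEPP-46, 0.350 times the Mt1 level and 0.472 times the Slc30a1 level. These were the 3 genes of the 10 at least 2-fold lower with shikonin than with TEPP-46, against 3.64% of all 11128 genes. Slc30a1 was only just past 2-fold, at -1.02 (counting SE 0.0466), and below it at -0.98 after centring and -0.83 with a pseudocount of 5. Slc39a10 was the 1 gene at least 2-fold higher with shikonin, at 3.03 times the TEPP-46 level, against 3.64% of all genes, and was below 2-fold at 0.75 with a pseudocount of 5. The TEPP-46 values were known when the genes were chosen, so nothing is read from these shares. Mtf1, Slc39a7 and Slc39a6 were higher with shikonin by 0.51, 0.63 and 0.56, and Slc30a5 by 0.18. Slc39a14 was at -0.25. Slc39a1 was at -0.03 on FPKM, at -0.08 on TPM and at 0.01 after centring on the median of all genes. Since the doses are not in the labels, these values do not rank the compounds.

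How the zinc genes stood after 72 h with the hairpin against PKM2 is described by shPKM2 against shControl. None of the 10 genes was at least 2-fold higher or lower, against 0.395% and 0.225% of all 11128 genes, so counts of 0 are near those shares. Mt2 was at 0.04 (counting SE 0.0159), Mt1 at 0.02 (counting SE 0.0163) and Mtf1 at 0.04 (counting SE 0.0690). Slc30a1 was at -0.08 (counting SE 0.0877), and its level was 0.931 times that in shControl. The extremes were Slc39a10 at -0.24 (counting SE 0.0590) and Slc39a14 at 0.18 (counting SE 0.0410), with Slc39a1 at -0.09. Slc30a5, Slc39a6 and Slc39a7 differed by -0.02, 0.00 and 0.00 on FPKM and by 0.04, 0.06 and 0.06 on TPM, so their sign depends on the scaling. With 1 library each, a difference smaller than the variation between cultures cannot be seen here.

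The control libraries themselves were not alike for the metallothioneins. Mt1 stood in shControl at 2.16 times and Mt2 at 2.13 times the vehicle level, and these 2 genes of the 10 were at least 2-fold higher, against 3.48% of all 11128 genes. None was at least 2-fold lower, against 0.665%. Here too the choice of the genes means that nothing is read from the shares. Slc30a1 (-0.16), Slc39a10 (-0.33) and Mtf1 (-0.12) were slightly lower in shControl, so Slc30a1 did not share the direction of Mt1 and Mt2 there. Slc39a14 was at -0.47, Slc39a1 at 0.35, Slc39a6 at -0.24, Slc30a5 at -0.14 and Slc39a7 at 0.08. The hairpin itself, the longer time and the absence of vehicle cannot be told apart between these libraries. With vehicle as the control of shPKM2, Mt1 and Mt2 were higher by 1.13 each, and Slc39a10 was at -0.56.

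Across both transporter families, 16 of 24 genes averaged 1 FPKM or more. The other 8 and the metallothionein genes Mt3 and Mt4 were at most 0.826 FPKM in any library, and Slc30a8 was listed at 0 in all 5. Of the 6 measured exporters, Slc30a1 was the one at least 2-fold higher with either compound, against 1.23% of all 11128 genes with TEPP-46 and 4.01% with shikonin. Slc30a1 was among the chosen genes, so nothing is read from these shares. Slc30a4, which fills vesicles with zinc, was at 42.2 FPKM with vehicle, 30.6 FPKM with shikonin, 42.8 FPKM with TEPP-46, 56.7 FPKM in shControl and 47.1 FPKM in shPKM2. It was low with shikonin (-0.45, counting SE 0.0291) and close to vehicle with TEPP-46 (0.02). Slc30a6 and Slc30a7, which like Slc30a5 supply the secretory pathway, differed from vehicle by 0.26 and -0.03 with shikonin and by -0.03 and -0.12 with TEPP-46. Slc30a9 was at -0.31 and 0.04. Exporters summed to 118 FPKM with vehicle, 113 FPKM with shikonin, 138 FPKM with TEPP-46, 127 FPKM in shControl and 115 FPKM in shPKM2. Slc30a1 made up 4.24% of that sum with vehicle, 10.4% with shikonin and 17.9% with TEPP-46. Its share was 3.45% in shControl and 3.54% in shPKM2.

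Of the 10 measured importers, Slc39a10, also among the chosen genes, was the one at least 2-fold lower with TEPP-46, against 0.359% of all genes. None was past 2-fold with shikonin, where 4.01% of all genes were higher and 3.50% lower, so a count of 0 among 10 is near those shares. Slc39a13, a carrier of intracellular membranes needed for connective tissue, was at 33.2 FPKM with vehicle, 19.6 FPKM with shikonin, 22.96 FPKM with TEPP-46, 29.9 FPKM in shControl and 35.7 FPKM in shPKM2, so both compound libraries were lowest (-0.73 and -0.52 against vehicle). Slc39a8, a relative of Slc39a14, went in opposite directions at low levels, from 2.20 FPKM with vehicle up to 2.83 FPKM (shikonin) and down to 1.09 FPKM (TEPP-46) (counting SE of the differences 0.134 and 0.176). With TEPP-46 its level was 0.493 times that with vehicle, past 2-fold as a ratio, but at -0.62 on log2(FPKM + 1). Slc39a11 was at -0.32 with shikonin and 0.42 with TEPP-46, Slc39a9 at 0.24 and -0.20, and Slc39a3 at 0.13 and 0.29. Importers summed to 311 FPKM with vehicle, 356 FPKM with shikonin, 279.7 FPKM with TEPP-46, 306 FPKM in shControl and 309 FPKM in shPKM2. Without Slc39a7 the sums were 215 FPKM with vehicle and 214 FPKM with shikonin. That likeness hides differences in both directions. Of all 10 importers, Slc39a7 included, 5 were higher with shikonin and 5 lower. Slc39a6 was also higher, at 86.0 FPKM against 61.3 FPKM, while Slc39a13 was lower. Between shPKM2 and shControl, all 16 transporters lay within 0.5, from -0.26 (Slc30a4) to 0.25 (Slc39a13). For TEPP-46 and for shikonin against vehicle 12 of the 16 did, and of all 11128 genes 97.1%, 92.1% and 67.7% did in these 3 comparisons in that order.

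**Figure D4:**
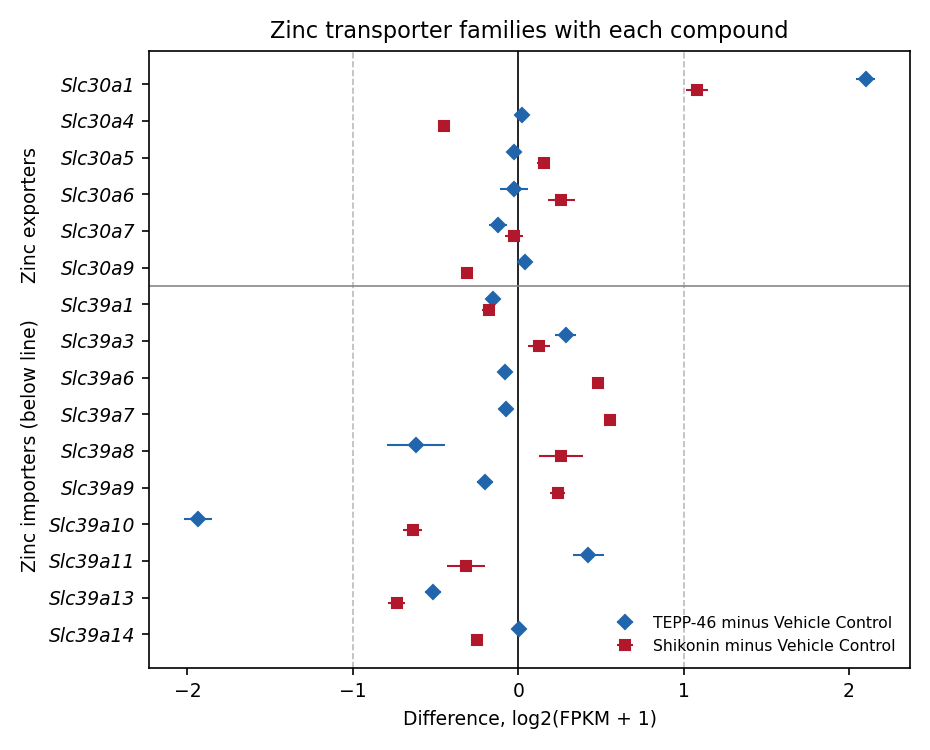
Differences of the 16 measured zinc transporter genes from the shared vehicle library, with TEPP-46 (diamonds) and shikonin (squares), on log2(FPKM + 1); bars are standard errors from counting alone and dashed lines mark 2-fold. Slc30a1 is the highest exporter with both compounds and Slc39a10 is the lowest importer with TEPP-46, at -1.94.

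Beyond the carriers, a list of 10 genes known to respond to zinc or MTF1 was followed, 4 of which are Mt1, Mt2, Slc30a1 and Slc39a10. Slc40a1, the iron exporter gene, was below 1 FPKM. Of the 9 measured genes, 4 were at least 2-fold higher with TEPP-46, against 1.23% of all genes, and 1 (Slc39a10) was at least 2-fold lower, against 0.359%. Of these 5 genes, 4 were chosen on this contrast, and the other was Ndrg1, a stress-responsive gene, at 162 FPKM against 28.0 FPKM (2.49). With shikonin 5 were higher, against 4.01% of all genes, and none was at least 2-fold lower, against 3.50%. Beside Mt1, Mt2 and Slc30a1 these were Ndrg1 (61.4 FPKM, 1.10) and Gclc, for the enzyme that limits glutathione synthesis (66.6 FPKM against 31.5 FPKM, 1.06). Gclc was at 0.60 with TEPP-46. Sepw1, which encodes selenoprotein W, was at 0.60 with TEPP-46 and 0.06 with shikonin. The LIM domain protein gene Csrp1 was at 0.27 with TEPP-46 and -0.89 with shikonin, and the growth factor gene Pgf at -0.53 and 0.62. The median of the 9 was 0.60 with TEPP-46, 1.06 with shikonin, -0.11 in shPKM2 against shControl, and 1.09 in shControl against vehicle. In this last comparison 5 genes were at least 2-fold higher, against 3.48% of all genes: Mt1, Mt2, Sepw1 (1.30), Ndrg1 (81.4 FPKM against 28.0 FPKM) and Pgf (1.27), and Slc30a1 was not among them. The medians over all 11128 genes were 0.00, -0.03, 0.00 and -0.02. Since 4 of the 9 genes were chosen with values of these libraries known, nothing is read from these counts and medians.

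Genes with the most similar pattern were sought among 8806 genes that averaged 5 FPKM or more, by the root mean square difference of log2(FPKM + 1) values over the 5 libraries, each gene centred on its own mean. For Mt2 the nearest was Trib3, a pseudokinase gene (0.17), at 13.3 FPKM with vehicle, 47.5 FPKM with shikonin, 160 FPKM with TEPP-46, 22.5 FPKM in shControl and 24.4 FPKM in shPKM2. Mt1 (0.24), the carbonic anhydrase gene Car6 (0.32) and the acyl-CoA thioesterase gene Acot2 (0.44) followed. Car6 was at 0.539 FPKM with vehicle and 17.6 FPKM with TEPP-46, and the added 1 narrows differences from so low a value. For Slc30a1 they were Cyb5r1 (0.17), Adm2 (0.21), Agpat9 (0.23) and the glycine transporter gene Slc6a9 (0.24), none of them a zinc carrier. For Slc39a10 they were Rgs16 (0.16), Errfi1 (0.28), Nr1d1 (0.39) and Pdk4 (0.39). Pdk4 differed from Slc39a10 in direction with shikonin, at 13.7 FPKM against 10.7 FPKM with vehicle. Rgs16, a regulator of G protein signalling, had 10.2 FPKM with vehicle, 7.16 FPKM with shikonin, 2.93 FPKM with TEPP-46, 10.3 FPKM in shControl and 6.81 FPKM in shPKM2. Likeness over 5 single libraries is a description and says nothing of shared control.

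In GENCODE M21 on GRCm38, Mt2 (ENSMUSG00000031762) and Mt1 (ENSMUSG00000031765) are neighbours on chromosome 8, from 94172664 to 94173568 and from 94179082 to 94180327. Slc30a1 and Slc39a10 are both on chromosome 1, at 191906767 to 191913247 (plus strand) and 46807544 to 46892852 (minus strand). Mtf1 lies on chromosome 4 from 124802104 to 124849800 (plus strand), Slc39a1 on chromosome 3 from 90248172 to 90253612 (plus strand) and Slc30a5 on chromosome 13 from 100802648 to 100833427 (minus strand). Slc39a7 lies on chromosome 17 from 34028269 to 34031682 and Slc39a14 on chromosome 14 from 70303469 to 70351425, both on the minus strand. FPKM values cover whole genes, so the 2 to 13 annotated transcripts of all but Slc39a1, which has 1, are not told apart. Some of the 10 genes overlap others in the annotation, and use of strand is not given in the sources used here. Elp2 lies partly opposite Slc39a6 and ran from 37.5 to 44.6 FPKM, and 1110065P20Rik lies partly opposite Mtf1 and ran from 16.0 to 24.7 FPKM. The latter was lowest with shikonin, where Mtf1 was highest. The gene opposite Slc30a1, 1700034H15Rik, was at most 0.167 FPKM. Gm45774 lies opposite Mt2. On the same strand, n-R5s192 overlaps Mtf1, Gm20427 overlaps Slc39a7, and Gm28151 and Gm37393 overlap Slc39a10. None of these genes has a row of values, and use of strand would not separate those on the same strand.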

How the data were processed

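Polyadenylated RNA of 5 C2C12 cultures was sequenced on a NextSeq500, 1 library per condition, per the labels' protocols. Per the submitters' processing notes, Trim Galore 0.6.0, cutadapt, FastQC and DESeq2 1.26.0 were among the tools and the build was GRCm38. Not given in the sources used here were the aligner, the counting program and the annotation. FPKM values were deposited by the authors, already divided by gene length and library size, so no count model was run. Columns were matched by name; that of shControl ends in 30, which the labels do not explain.

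Values were taken as log2(FPKM + 1) with Python 3.11.15 and pandas 2.3.3, and genes averaging 1 FPKM or more over the 5 libraries formed the background. Depth was estimated from the lowest values: in 82.6% of 3172 low genes, the values fitted whole multiples of a common step (tolerance 0.02), and 628 genes with a single GENCODE M21 transcript gave the scale (vehicle library, quartiles 27.6 and 32.5, in units of 1000000 reads). Counting SE used these depths and principal transcript lengths, and covers counting error only. Depth estimation and 2-fold counts were tested on simulated data. These held counting error alone, without variation between cultures or library preparations, so they do not show whether the 2-fold counts would repeat. Promoter windows are from RefSeq, and coding sequences from GENCODE M21.

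The genes and lists were chosen with earlier results of these data known. Named genes are the 10 genes, every other measured metallothionein or zinc transporter gene, list members past 2-fold (at most 4 a list) and the 4 nearest genes by pattern; other list members were named for completeness after their values were seen. Alternatives were pseudocounts of 0.1 and 5, TPM scaling, centring, a 1.5-fold threshold, a minimum mean of 5 FPKM and the other control library.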

Additional observations from a re-analysis of the deposited data

How the results depend on the processing

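No paired analysis was possible because each condition had 1 library, and for the same reason no library could be left out. These counts of the 10 genes past 2-fold differed under an alternative. For shikonin against vehicle, 3 genes were higher, and 1 was with shControl as the control, 2 were with a pseudocount of 5 (Slc30a1 was then at 0.74) and 4 were at a 1.5-fold threshold. With vehicle as the control of shPKM2, 2 were higher instead of 0. Against TEPP-46, the count higher with shikonin was 0 with a pseudocount of 5 and 2 at a 1.5-fold threshold, instead of 1. The count lower with shikonin than with TEPP-46 was 2 instead of 3 with a pseudocount of 5 and after centring. At 1.5-fold 1 gene was lower with shikonin than with vehicle, instead of 0. Slc30a1 between the compounds was at -1.02 and at -0.98 after centring. The counts for TEPP-46 against vehicle, 3 higher and 1 lower, were the same under all 7 alternatives. No gene past 2-fold changed sign. Among all genes, the count higher in shPKM2 than in shControl was 44, and 28 with a minimum mean of 5 FPKM. With the bases before the start alone, 4 genes held a metal response element core and 3 an antioxidant one, against 4 and 4.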

Other observations

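Copper shares metallothionein as a binding protein, and a list of 11 copper handling genes was followed. Of 10 measured (Atp7b was below 1 FPKM), none was past 2-fold with TEPP-46 (median 0.08), in shPKM2 against shControl (median 0.04) or in shControl against vehicle (median 0.10). The shares of all 11128 genes at least 2-fold higher and lower were 1.23% and 0.359%, 0.395% and 0.225%, and 3.48% and 0.665% in these 3 comparisons, so counts of 0 among 10 are near them. With shikonin the superoxide dismutase gene Sod1 was the 1 past it, at 1056 FPKM against 521 FPKM (1.02), against 4.01% of all genes higher and 3.50% lower, and the median was 0.17. Members lay on both sides of it with shikonin: Atp7a, a copper exporter gene, was at 0.56 and Sco1 at 0.51, while Commd1 was at -0.69 and Cox17, a copper chaperone gene of mitochondria, at -0.58. Cox17 was also at 0.64 in shControl against vehicle and at -0.46 in shPKM2 against shControl. With TEPP-46 these 4 genes were at -0.08, 0.31, 0.10 and 0.09. The copper importer gene Slc31a1 was at 0.31 with shikonin and 0.08 with TEPP-46.

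Glucocorticoids are also known to raise Mt1 and Mt2, so 8 glucocorticoid-responsive genes were followed, of which Zbtb16 was below 1 FPKM. With TEPP-46, Tsc22d3 (47.3 FPKM against 19.5 FPKM, 1.23) and Klf9 (14.5 FPKM against 5.77 FPKM, 1.19) were at least 2-fold higher. Errfi1 (-1.25) was at least 2-fold lower, and over all genes the shares higher and lower were 1.23% and 0.359%. Cebpd (0.46), Per1 (0.39), Sgk1 (0.37) and Fkbp5 (0.04) lay above vehicle by less than 2-fold, so 6 of the 7 were higher and 1 lower. With shikonin none of the 7 was past 2-fold, against 4.01% of all genes higher and 3.50% lower, so a count of 0 is near those shares. Sgk1 (0.64), Per1 (0.62), Klf9 (0.57) and Cebpd (0.22) lay above vehicle, Tsc22d3 was at 0.07, and Fkbp5 (-0.59) and Errfi1 (-0.68) lay below. The medians were 0.39 and 0.22, -0.03 in shPKM2 against shControl and 0.13 in shControl against vehicle, where none was past 2-fold either. In shControl against vehicle 3.48% of all genes were higher and 0.665% lower, so that count of 0 is also near the shares. Their part in the metallothionein values was not tested.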
